A study of Mus musculus with 9 samples.

Results

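Replication-dependent histone genes encode the linker histone H1 and the core histones H2A, H2B, H3 and H4, around which DNA is wound in nucleosomes. In the expression values that were deposited, 67 gene rows had a symbol that begins with Hist1h, Hist2h, Hist3h or Hist4h, and the 46 of them with a value above 0 in at least 1 of 9 libraries were taken as members, out of 21989 gene rows in all. Of the 46 genes, 4 encode H1, 12 encode H2A, 11 encode H2B, 7 encode H3 and 12 encode H4. The other 21 rows were listed at 0 in every library, among them 5 of the 12 H3 rows but 1 of the 13 H4 rows.

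RNA was sequenced from whole hearts of C57BL/6J males that were 18 to 20 weeks old, with 3 libraries in each of 3 groups. The LD group had an operation labelled TAC (usually short for transverse aortic constriction), which loads the left ventricle with pressure, and received Lingguizhugan decoction (LD), a Chinese herbal preparation. The TAC group had the same operation and received distilled water, and the sham group had a sham operation and received distilled water. The labels call the 3 libraries of a group biological repeats and name no litter, operation day or sequencing batch.

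In dividing cells these histone genes are transcribed mainly during S phase, when new DNA has to be packed. Most of their mRNAs end in a conserved stem-loop in place of a poly-A tail: the stem-loop binding protein Slbp holds the RNA while the U7 small nuclear ribonucleoprotein and a cleavage complex cut it a few bases downstream. Some of the genes can also give longer, polyadenylated mRNAs from signals beyond the stem-loop, a form known from differentiated cells. Heart muscle cells of adult mice seldom divide, and their chromatin is kept up largely by replication-independent histones such as those of H3f3a and H3f3b. The labels' protocol states that mRNA was taken with poly-T beads, so an mRNA that ends at the stem-loop would be captured only in so far as it carries a stretch of A. How much of each value comes from tailed and untailed forms cannot be told apart in these files.

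The 16-base histone stem-loop motif was found in GENCODE transcripts of 33 of the 46 genes, read on the sense strand only. A missing match does not show that a gene lacks the stem-loop, since a transcript may be annotated too short to reach it. Hist1h4k and Hist1h2ak, without a match, have GENCODE transcripts of 312 and 393 bases, against 409 and 536 in RefSeq. The motif is a stem of paired bases closed by a loop rich in T, with a few letters free, and the forms found are listed after the sequences. It is shown for the genes the results turn on, since it marks where the untailed mRNA ends. Letters run 5′ to 3′ in the sense of the mRNA, capitals mark the 16 bases, and the positions are those of the capitals on GRCm38.
Hist1h1c (H1, chr13:23739512-23739527, plus strand): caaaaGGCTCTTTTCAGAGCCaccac
Hist1h1e (H1, chr13:23621782-23621797, minus strand): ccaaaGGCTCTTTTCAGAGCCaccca
Hist2h2aa1 (H2A, chr3:96246032-96246047, plus strand): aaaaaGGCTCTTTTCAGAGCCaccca
Hist3h2ba (H2B, chr11:58949349-58949364, plus strand): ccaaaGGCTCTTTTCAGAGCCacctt
Hist1h3d (H3, chr13:23576244-23576259, plus strand): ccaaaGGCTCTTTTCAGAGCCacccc
Hist1h4h (H4, chr13:23531458-23531473, plus strand): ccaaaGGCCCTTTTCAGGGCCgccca
Hist1h4d (H4, chr13:23581950-23581965, plus strand): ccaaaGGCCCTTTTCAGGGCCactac
Hist2h4 (H4, chr3:96262939-96262954, minus strand): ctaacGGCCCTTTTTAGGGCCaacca
The form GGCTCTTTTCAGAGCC occurred in 19 genes of the H1, H2A, H2B and H3 classes and in no H4 gene. The form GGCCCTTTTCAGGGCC occurred in 7 genes, all of them H4. The other forms were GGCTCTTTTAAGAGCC in 3 genes, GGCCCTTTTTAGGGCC in 2 H4 genes, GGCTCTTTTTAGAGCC in 1 H2A gene and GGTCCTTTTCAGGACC in 1 H4 gene. No such match was found in Hist1h2bc or Hist2h2be, 2 of the more abundant H2B genes.

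The annotated ends of these genes differ between catalogues. Fragment numbers and gene lengths could be recovered from the deposited values, and for 31 genes the recovered length equalled that of the RefSeq model. In 25 of those 31 the stem-loop was found, and the RefSeq model stopped 4 to 8 bases after it. The GENCODE transcript ran more than 100 bases past the stem-loop in 18 genes, by as much as 4884 bases in Hist1h1d. Of these 18 genes, 9 were among the 17 that reached the level needed for a test and 9 among the 29 that did not. Hist1h2bc is annotated with 2 exons, and 42 of the 46 genes have a single exon. Chromosome 13 holds 37 of the genes, chromosome 3 holds 7, and chromosomes 11 and 6 hold 1 each.

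Shared sequence limits how far single genes can be read. In 42 of the 46 genes at least 1 stretch of 100 bases was shared letter for letter with a transcript of another gene, and in 17 genes more than 50% of such stretches were shared. These counts include stretches shared with genes that overlap a member on the genome, on either strand, and 15 members have such an overlap. In Hist2h2aa1 and Hist2h2aa2 100% of stretches were shared with at least 1 other gene, so each value of theirs is uncertain. How much of this they share with each other was not counted. In Hist1h4d, Hist2h4 and Hist2h2be no stretch was shared, in Hist1h1c 5.07% were and in Hist1h3d 20.4%. Stretches were taken over GENCODE transcripts, which are 1560 bases long in Hist1h1c and 1249 in Hist1h3d, against recovered lengths of 725 and 504. Shares within the recovered lengths were not counted and may be higher. Hist1h1e overlaps Hist1h2be and Gm11398 on the genome, and since no step that marks the strand is named in the labels, fragments in the overlap cannot be assigned.

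Promoters were read from RefSeq, build GRCm38.p6, as the 250 bases before and 50 after each gene's start, for the 41 genes that had an entry. They were searched on both strands for 3 motifs known from histone promoters: CCAAT, which the factor NF-Y binds; TATAAA, the site of the general factor TBP; and ATTTGCAT, the octamer bound by Oct factors. CCAAT was found in 33 of 41 (80.5%), against 37.4% of all 32851 RefSeq promoters. TATAAA was found in 24 of 41 (58.5%), against 13.6% of all, and ATTTGCAT in 5 of 41 (12.2%), against 1.74% of all. Some of the 41 windows overlap on opposite strands, so the same bases can be counted for both genes of a pair. The windows of Hist1h2ae (chr13:23571171-23571470) and Hist1h2bg (chr13:23571150-23571449) do, and both are among the 5 with ATTTGCAT. Every H1, H2A, H2B and H3 promoter with an entry held CCAAT, but only 3 of 11 H4 promoters did, while 8 of the 11 held TATAAA. The promoters of the most abundant H4 and H1 gene are printed, with the matches in capitals. That of Hist1h4h holds no exact match to the 3 motifs, unlike the 8 of 11 H4 promoters with TATAAA, and that of Hist1h1c a single CCAAT. Other forms of these sites were not searched for, so a gene without a match may still hold one.
Hist1h4h (chr13:23530794-23531093, plus strand): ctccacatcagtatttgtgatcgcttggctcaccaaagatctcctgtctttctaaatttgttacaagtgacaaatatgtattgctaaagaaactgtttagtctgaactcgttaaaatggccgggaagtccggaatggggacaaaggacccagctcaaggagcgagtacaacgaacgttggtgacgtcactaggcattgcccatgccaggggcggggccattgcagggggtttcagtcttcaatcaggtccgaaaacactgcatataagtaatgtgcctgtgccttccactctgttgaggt
Hist1h1c (chr13:23738557-23738856, plus strand): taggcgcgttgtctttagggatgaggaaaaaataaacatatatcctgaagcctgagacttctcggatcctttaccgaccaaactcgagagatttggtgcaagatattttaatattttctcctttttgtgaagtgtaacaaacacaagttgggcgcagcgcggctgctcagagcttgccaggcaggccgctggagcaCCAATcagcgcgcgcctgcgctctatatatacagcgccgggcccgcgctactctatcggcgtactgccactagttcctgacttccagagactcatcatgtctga
These matches describe the letters in these windows.

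The libraries differed in depth and in how their counts were made up. Totals lay between 7.43 and 18.1 M fragments. Below 30 fragments, recovered numbers were odd in 5.74 to 8.07% of genes in TAC 2, TAC 3, sham 1 and sham 3, but in 46.6 to 54.6% in the other 5 libraries; from 1000 fragments on, 44.4 to 50.8% were odd in all 9. No LD library had mostly even counts, so this difference crosses the comparisons with LD, and results are also given without those 4 libraries and with even counts as a term in the fit. The summed level of 7 cardiomyocyte markers was 31588 to 46642 FPKM (fragments divided by the length of the gene and the size of the library) in LD hearts, 27703 to 33254 FPKM in TAC hearts and 33000 to 36282 FPKM in sham hearts. Markers of red blood cells summed to 1205 to 2274, 2238 to 11052 and 516 to 3343 FPKM in LD, TAC and sham hearts.

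Together the 46 genes made up 0.0411 to 0.0700% of the summed FPKM of a library, and 3 genes led them. Their summed level was 370, 240 and 395 FPKM in the LD libraries, 259, 287 and 267 FPKM in the TAC libraries and 341, 240 and 301 FPKM in the sham libraries. The 3 groups overlapped, with means of 335 ± 83.3 FPKM in LD, 271 ± 14.7 FPKM in TAC and 294 ± 50.6 FPKM in sham (SD, n = 3 each). Hist1h4h, Hist1h2bc and Hist1h1c together made up 69.4 to 83.2% of the sum in each library. The H4 genes had the largest sum in every library, with 96.6 to 206 FPKM in LD, 105 to 136 FPKM in TAC and 123 to 195 FPKM in sham. The H2B genes summed to 64.3 to 110 FPKM in LD, 82.7 to 102 FPKM in TAC and 68.1 to 87.2 FPKM in sham. The H2A genes summed to 33.1 to 42.7 FPKM in LD, 24.8 to 44.5 FPKM in TAC and 20.7 to 40.5 FPKM in sham. The H1 genes summed to 35.9 to 64.7 FPKM in LD, 15.7 to 25.03 FPKM in TAC and 9.14 to 42.2 FPKM in sham, so that H1 was the class whose LD sums all lay above its TAC sums. H3 had the smallest sum in every library but sham 1, where H1 was lower, at 7.24 FPKM or less in LD, 6.54 FPKM or less in TAC and 5.03 to 9.27 FPKM in sham, and no H3 gene was above 0 in LD 3 or TAC 3.

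**Figure D1:**
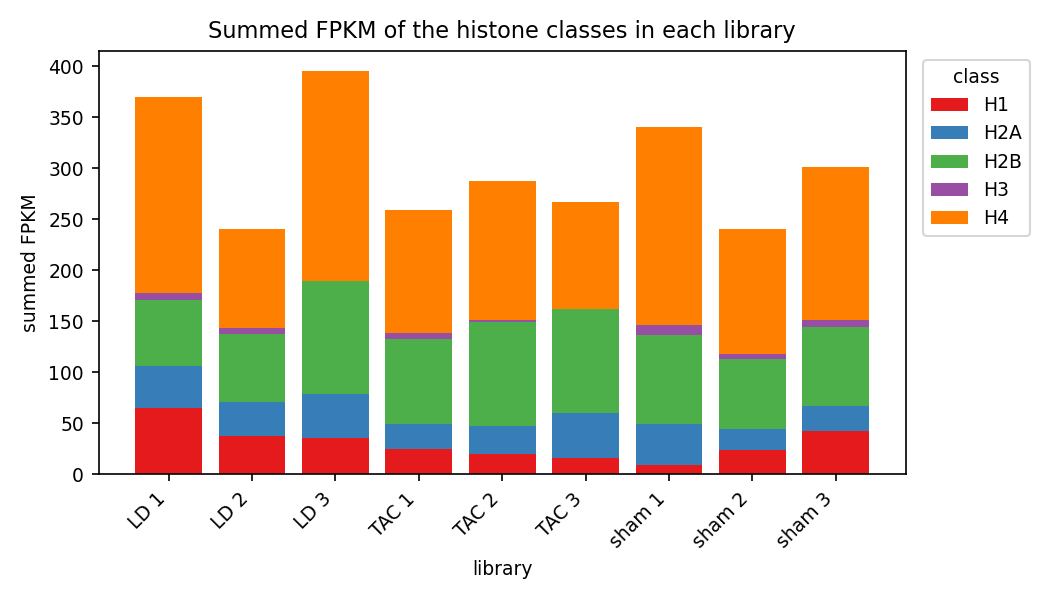
Summed FPKM (vertical axis) of the H1, H2A, H2B, H3 and H4 genes, stacked, in each of the 9 libraries (horizontal axis; LD, TAC, sham). H4 and H2B make up most of each bar, and the totals run from 240 FPKM in LD 2 to 395 FPKM in LD 3.

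Most of the 46 genes were seen in some hearts and not in others. In LD libraries 25, 34 and 25 genes were above 0 FPKM, in TAC libraries 22, 18 and 14, and in sham libraries 26, 26 and 22. The LD and TAC counts did not overlap, and the LD and sham counts did. The same counts over all gene rows were not set beside these, so they are not shown to be particular to histone genes. Had every library been drawn down to the smallest total of 7.43 M fragments, the expected numbers would be 25, 30.5 and 22.7 in LD, 21.5, 17.4 and 13.97 in TAC and 25.5, 23.5 and 21.1 in sham. The drawing takes each recovered fragment as separate, which the mostly even counts of TAC 2, TAC 3, sham 1 and sham 3 put in doubt. It therefore cannot show whether LD and TAC would differ at equal depth. TAC 2 and TAC 3, with the fewest genes, are both libraries with mostly even counts, as are sham 1 and sham 3 with 26 and 22. The H4 class carried much of the pattern: 8, 8 and 8 of its 12 genes were above 0 in LD, 4, 2 and 4 in TAC and 4, 5 and 6 in sham. Of all 46 genes, 8 were above 0 in all 9 libraries and 23 in 3 or fewer. A gene of 500 bases with 3 fragments would read 0.331 FPKM in the deepest library and 0.808 FPKM in the shallowest; a listed 0 leaves room up to about that level, counting error only.

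**Figure D2:**
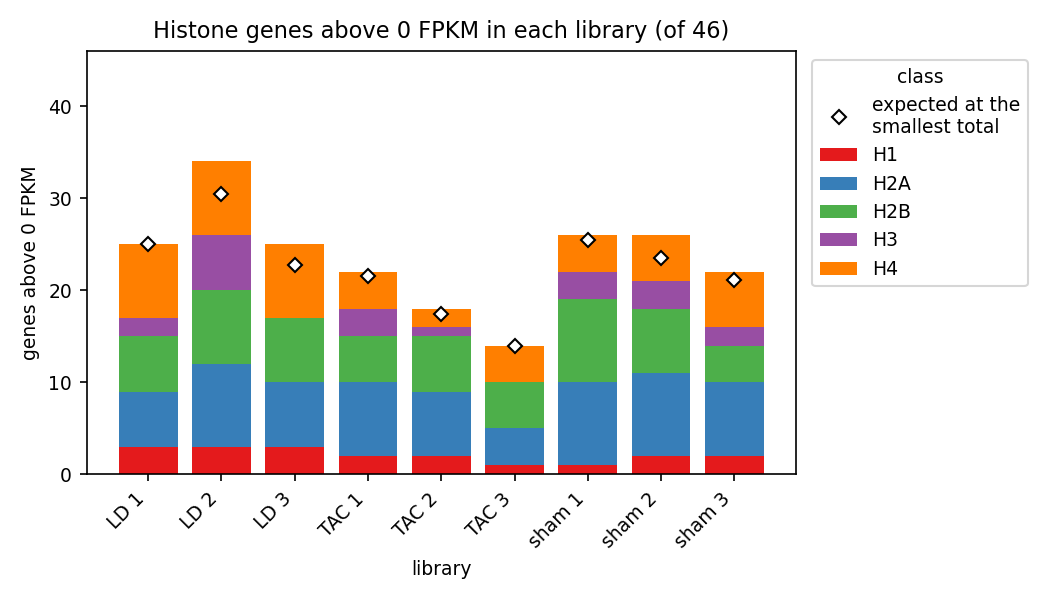
Number of histone genes above 0 FPKM (vertical axis, of 46) in each library, stacked by class, with open diamonds for the number expected had the library only 7.43 M fragments. The LD libraries reach 25 to 34 genes, TAC 14 to 22 and sham 22 to 26. At the diamonds the lowest LD library has 22.7 and the highest TAC library 21.5. The diamonds take each fragment as separate, which mostly even counts put in doubt. They cannot show whether LD and TAC would differ at equal depth.

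**Figure D3:**
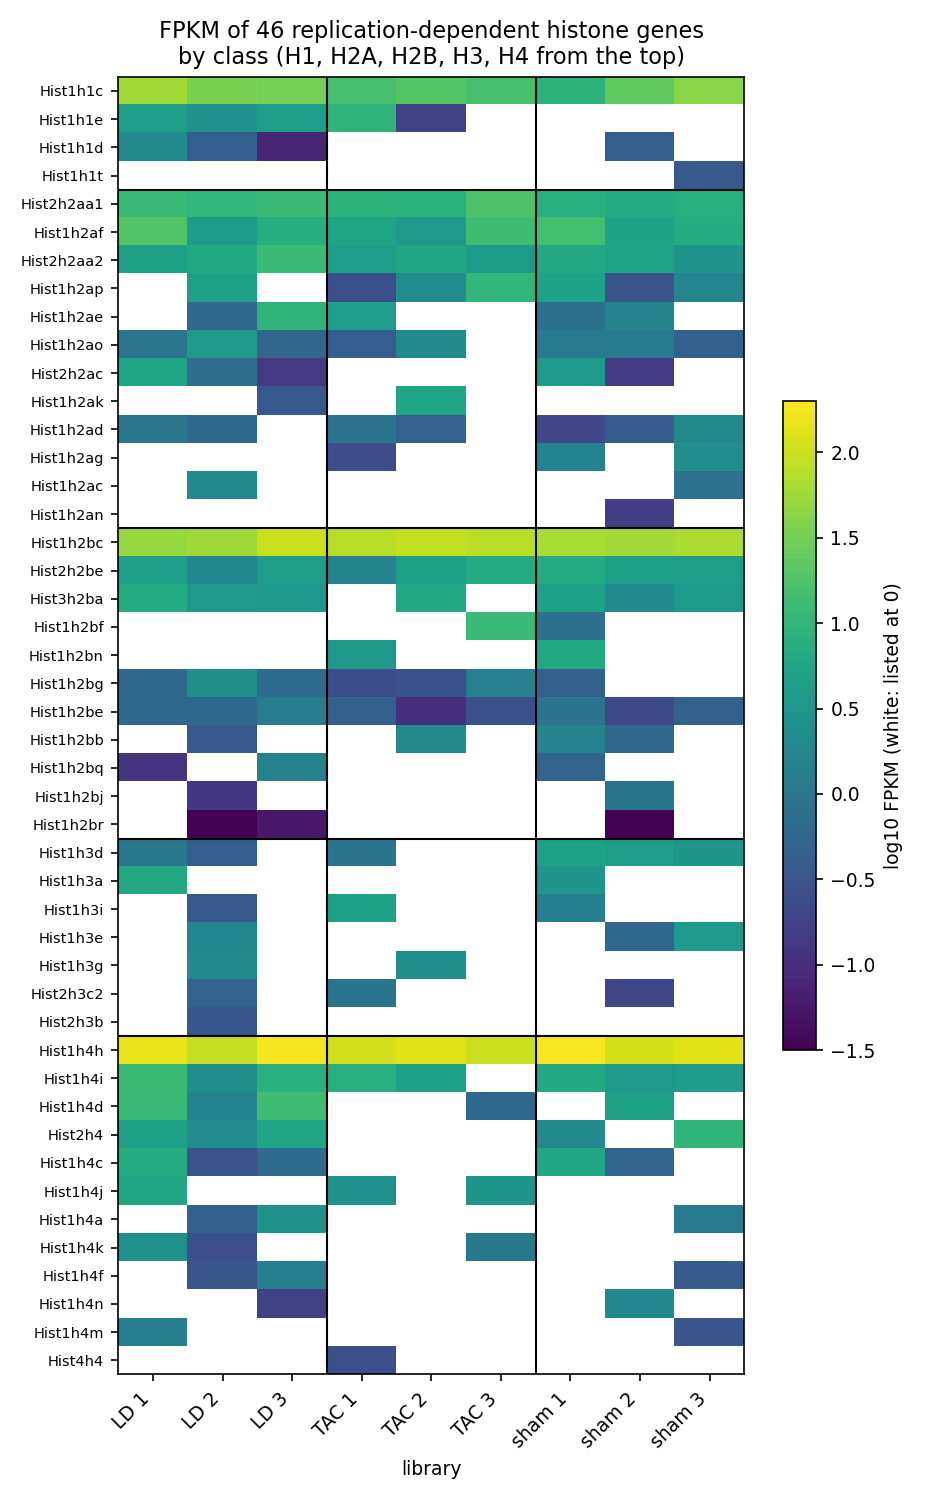
Level of each of the 46 genes (rows, by class and mean level) in each library (columns), as log10 FPKM by colour, with white for genes listed at 0. Rows that are filled across all 9 libraries are few, and white cells are most frequent in TAC 2 and TAC 3.

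Differences between groups were tested on log2(FPKM + 1) with limma across the 11380 genes that had at least 1 FPKM in at least 3 libraries, 17 of the histone genes among them, with Benjamini-Hochberg adjustment over all 11380. Hist1h4d, Hist2h4 and Hist1h1e met that filter through LD, with 1 FPKM or more in all 3 LD libraries and in 1, 2 and 1 of the other libraries, and Hist1h3d met it through sham, in all 3 sham libraries and LD 1. A low gene that meets the filter through the group where it is high had to differ, so counts and medians over the 17 describe those genes only, not all 46, and are not support for a difference. Differences are given on that scale, which understates the change of low genes. No gene of the 11380 and no histone gene had an adjusted p under 0.05 in any of the 3 comparisons, a background of 0% called. By unadjusted p under 0.05, LD against TAC had 1004 genes, LD against sham 581 and TAC against sham 618, and with even counts as a term they had 340, 296 and 570. Weighting the arrays by quality called 135 genes in LD against sham and 9 in TAC against sham, and limma's voom on the recovered fragments called 3 and 4. The values below are therefore levels with their spread, and none passed the test as specified. Values of 0 were frequent: 10 of the 17 tested histone genes (58.8%) were at 0 in at least 1 library, against 3.80% of the 11380 genes.

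The decoction is addressed by LD against TAC. Here 4 of 17 histone genes were higher at an unadjusted p under 0.05, against a background of 2.51% of all tested genes, and none was lower, against 6.31%. The 4 were Hist1h4d, Hist2h4, Hist1h1c and Hist3h2ba, of which Hist1h4d and Hist2h4 met the filter through LD. In 3 genes (Hist1h4d, Hist2h4 and Hist1h1c) all LD libraries lay above all TAC libraries, against 3.73% of all tested genes, and in none did all lie below, against 8.14%. In all, 13 of the 17 differences were above 0 and 4 below, with a median of 0.56, beside a median of -0.10 over all 11380 genes. The smallest adjusted p among the 17 was 0.398. The median depended on TAC 3: it was 0.21 without that library and 0.33 without TAC 2, and leaving out TAC 3 and LD 3 together gave 0.31. It was 0.40 with even counts as a term, 0.31 with array weights, 0.27 over all 46 genes with no filter on low values and 0.86 with a pseudocount of 0.1.

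In LD against sham 3 of 17 were higher at an unadjusted p under 0.05, against 1.52% of all genes, and 1 was lower, against 3.59%. With even counts as a term none was higher and 1 was lower. Without overlap of the groups 2 genes were higher (Hist1h1e and Hist2h2aa1), against 4.47%, and 1 was lower (Hist1h3d), against 8.76%. The median over the 17 was 0.45, beside -0.11 over all genes, and 0.40 with genes listed at 0 in a whole group set at the value of 3 fragments. In TAC against sham none was higher at an unadjusted p under 0.05, against 2.85%, and 2 were lower (Hist1h3d and Hist2h4), against 2.58%. There 2 genes lay wholly above sham (Hist2h2aa1 and Hist1h2bc), against 5.22%, and 1 wholly below (Hist1h3d), against 4.62%. The median over the 17 was -0.29, beside 0.00 over all genes, with 6 differences above 0 and 11 below. The comparisons share samples: LD enters 2 of them, as do TAC and sham, so they are not separate evidence.

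**Figure D4:**
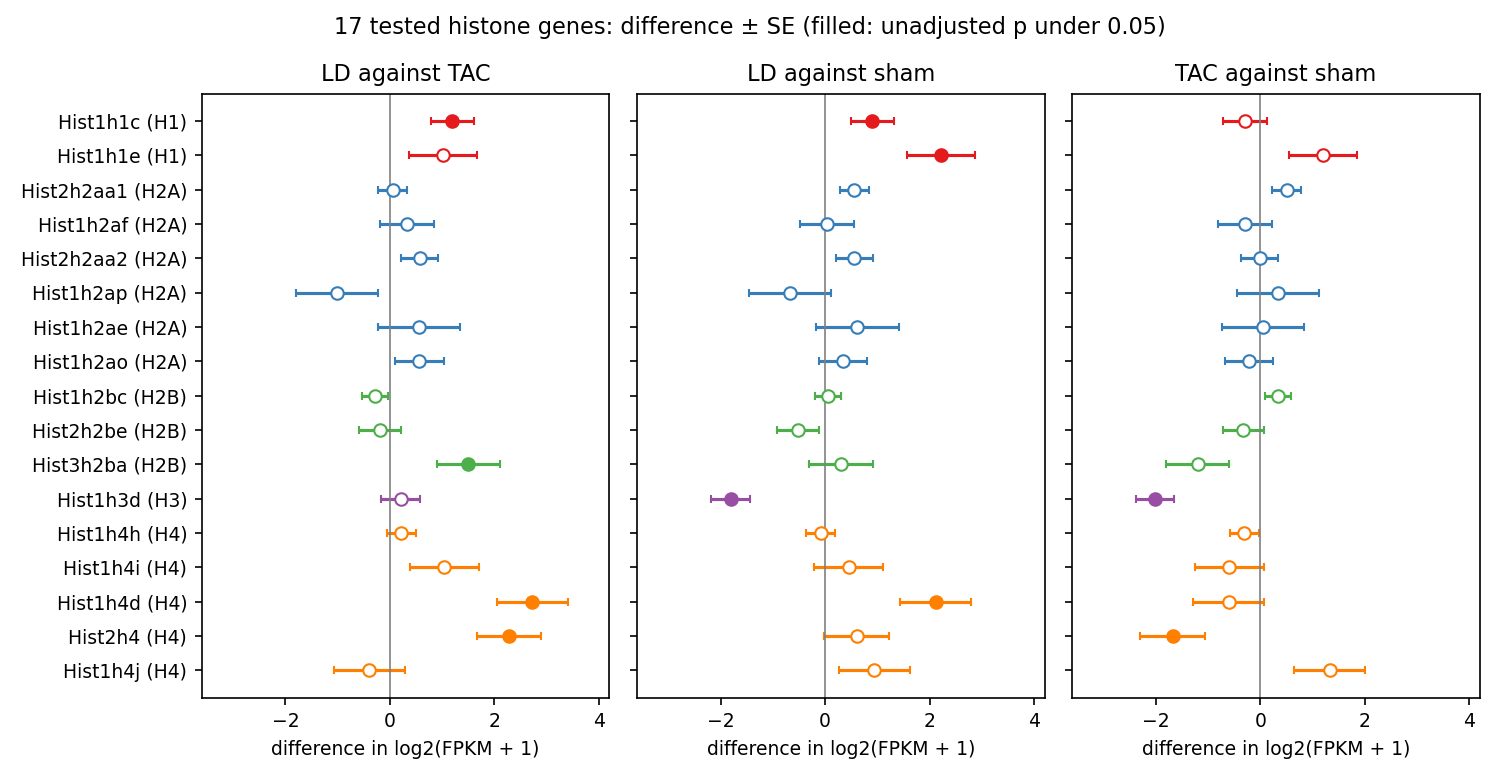
Difference in log2(FPKM + 1), with its standard error, of the 17 tested histone genes (rows, by class) in LD against TAC, LD against sham and TAC against sham. Filled circles mark unadjusted p under 0.05; they are 4 of 17, 4 of 17 and 2 of 17 in the 3 panels, and no adjusted p was under 0.05.

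Among the H1 genes, Hist1h1c (H1f2 in RefSeq, a linker histone, chromosome 13, 23738808 to 23740367) was the most abundant. It had 58.5, 34.7 and 31.6 FPKM in LD hearts, 15.6, 19.8 and 15.7 FPKM in TAC hearts and 9.14, 23.4 and 41.9 FPKM in sham hearts. Every LD heart was above every TAC heart, whereas the sham hearts spread across both. The means were 41.6 ± 14.7 FPKM in LD, 17.04 ± 2.42 FPKM in TAC and 24.8 ± 16.4 FPKM in sham (SD, n = 3 each). LD against TAC gave 1.20 ± 0.42 (SE) on the log2 scale, with an unadjusted p of 0.0125 and an adjusted p of 0.537 by limma. Without a replicate in turn, and under the other settings tried, this difference stayed between 0.93 and 1.36. The 3 LD libraries and the 1 TAC library without mostly even counts gave 1.31.

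Hist1h1e (H1f4 in RefSeq, a linker histone, chromosome 13, 23620629 to 23622558) was present in every LD heart and in no sham heart. It had 4.13, 2.83 and 4.22 FPKM in LD hearts, 9.43, 0.172 and 0 FPKM in TAC hearts, and 0 FPKM in all 3 sham hearts. These came from 24, 40 and 53 fragments in LD and 62, 2 and 0 in TAC. LD stood at least 15.2-fold higher than sham, with sham set at 3 fragments per library. That bound takes each fragment as separate and may be too high, since sham 1 and sham 3 have mostly even counts. The fitted difference was 2.23 ± 0.65 (SE), with an unadjusted p of 0.00423 and an adjusted p of 0.775 by limma. That adjusted p was under 0.05 in a fit of the LD and sham libraries alone (0.00928), with array weights (0.0257) and without TAC 1 (0.0156), and ran from 0.419 to 0.9999 over the other settings. Hist1h1e met the filter through LD, so these values are not support for a difference. Leaving out TAC 1 alters no LD or sham value, only the spread that the groups share. LD and TAC overlapped: TAC 1 held the highest value of all, and leaving out the libraries with mostly even counts turned that difference to -1.16, against 1.02 with all. Of the other H1 genes, Hist1h1d was above 0 in 4 libraries, at 2.08 FPKM or less, and Hist1h1t (known as a testis form) was above 0 in sham 3 alone, at 0.366 FPKM.

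Among the H2A genes, the pair Hist2h2aa1 and Hist2h2aa2 on chromosome 3 was seen in every heart. Hist2h2aa1 had 11.6, 10.5 and 12.3 FPKM in LD hearts, 9.20, 8.34 and 17.3 FPKM in TAC hearts and 7.94, 6.81 and 7.73 FPKM in sham hearts. All LD and all TAC hearts were above all sham hearts, with differences of 0.56 ± 0.28 and 0.50 ± 0.28 (SE), neither of which had an unadjusted p under 0.05, and TAC against sham was 0.20 without TAC 3. Hist2h2aa2 had 4.52, 6.50 and 12.4 FPKM in LD hearts, 4.19, 5.86 and 3.74 FPKM in TAC hearts and 6.11, 5.199 and 2.93 FPKM in sham hearts, and its groups overlapped.

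Hist1h2af, another H2A gene, had 18.4, 3.90 and 7.32 FPKM in LD hearts, 5.34, 3.45 and 13.3 FPKM in TAC hearts and 13.9, 5.00 and 7.18 FPKM in sham hearts. Hist1h2ap had 0, 4.53 and 0 FPKM in LD hearts, 0.263, 2.23 and 10.1 FPKM in TAC hearts and 5.13, 0.305 and 1.78 FPKM in sham hearts. In both genes the spread within a group was as wide as that between groups. Most of the sequence of both is shared with transcripts of other genes (79.3% of 100-base stretches in Hist1h2af and 92.2% in Hist1h2ap). The remaining tested H2A genes, Hist1h2ae and Hist1h2ao, averaged 1.87 and 1.16 FPKM over the 9 libraries, and the 6 that were not tested averaged 1.11 FPKM or less.

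Hist1h2bc (chromosome 13, 23684199 to 23692908), a 2-exon H2B gene, was the steadiest of the abundant members in TAC and sham. It had 51.8, 58.0 and 99.5 FPKM in LD hearts, 77.0, 88.4 and 80.7 FPKM in TAC hearts and 64.8, 59.9 and 68.8 FPKM in sham hearts. All TAC hearts lay above all sham hearts, with a difference of 0.34 ± 0.25 (SE) and an unadjusted p of 0.196 by limma. The LD hearts had both the lowest values and the highest.

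Hist3h2ba, an H2B gene on chromosome 11, had 6.99, 3.59 and 3.37 FPKM in LD hearts, 0, 6.11 and 0 FPKM in TAC hearts and 4.78, 2.09 and 3.78 FPKM in sham hearts. It was listed at 0 in 2 of 3 TAC hearts and in no other heart, but TAC 2 exceeded 2 of the 3 LD hearts. LD against TAC gave 1.499 ± 0.60 (SE), with an unadjusted p of 0.0267 and an adjusted p of 0.537 by limma, and was 2.44 without TAC 2 and 1.03 without TAC 1. Hist2h2be, an H2B gene on chromosome 3, had 4.14, 1.89 and 4.09 FPKM in LD hearts, 1.61, 4.44 and 6.90 FPKM in TAC hearts and 6.95, 4.41 and 4.13 FPKM in sham hearts, with overlap throughout. Among untested H2B genes, Hist1h2be was above 0 in all 9 libraries, at 1.27 FPKM or less, and Hist1h2bf had 12.4 FPKM in TAC 3, the highest value of any untested member.

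Hist1h3d (chromosome 13, 23575763 to 23577011), which encodes an H3 histone, was the only H3 gene tested and the one tested member with all LD and all TAC libraries below all sham libraries. It had 1.07, 0.439 and 0 FPKM in LD hearts, 0.944, 0 and 0 FPKM in TAC hearts and 4.82, 4.24 and 3.20 FPKM in sham hearts. The sham hearts held 44, 31 and 24 fragments, and no LD or TAC heart held more than 4. TAC against sham gave -2.01 ± 0.37 (SE), with an unadjusted p of 8.59e-05 and an adjusted p of 0.138 by limma. LD against sham gave -1.81 ± 0.37, with an adjusted p of 0.290. The adjusted p of TAC against sham was under 0.05 with array weights (0.0141) and without TAC 1 (0.0352), and that of LD against sham with array weights (0.00332), and over all other settings they ran from 0.101 to 1 and from 0.0907 to 0.9999. Sham 2, the sham library without mostly even counts, stood above LD 1 to LD 3 and TAC 1, which are the others of that kind. Hist1h3d met the filter through sham, so none of these values, that of sham 2 included, is support for a difference. The remaining H3 genes (Hist1h3a, Hist1h3e, Hist1h3g, Hist1h3i, Hist2h3b and Hist2h3c2) were above 0 in 1 to 3 libraries each.

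Hist1h4h (chromosome 13, 23531050 to 23531519), an H4 gene, was the most abundant member. It had 146, 88.9 and 174 FPKM in LD hearts, 109, 131 and 100 FPKM in TAC hearts and 180, 112 and 134 FPKM in sham hearts. The groups overlapped, and no difference exceeded 0.31 on the log2 scale. Hist1h4i, the next H4 gene, had 12.4, 2.47 and 8.19 FPKM in LD hearts, 7.68, 4.67 and 0 FPKM in TAC hearts and 6.57, 3.42 and 4 FPKM in sham hearts. Its LD against TAC difference of 1.04 ± 0.66 (SE) rested on TAC 3, where it was listed at 0, and was 0.10 without that library.

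Hist1h4d (chromosome 13, 23581598 to 23582735) is an H4 gene that was above 0 in every LD heart. It had 11.3, 1.65 and 13.2 FPKM in LD hearts, 0, 0 and 0.606 FPKM in TAC hearts and 0, 4.68 and 0 FPKM in sham hearts. LD held 31, 11 and 78 fragments, TAC 0, 0 and 2, and sham 0, 25 and 0, so every LD heart was above every TAC heart and sham 2 lay within the LD range. The fitted difference was 2.73 ± 0.68 (SE), with an unadjusted p of 0.00132 and an adjusted p of 0.398 by limma. Summed over the libraries, LD had 46.6 times the fragments of TAC per total fragments, with an exact 95% interval of 12.6 to 389 that covers counting error only. The interval pools the hearts of a group, so it leaves out the spread between them. It also takes each fragment as separate and may be too narrow, since TAC 2 and TAC 3 have mostly even counts. The LD against sham difference was 2.12 ± 0.68, with an adjusted p of 0.844, and was 0.45 among the libraries without mostly even counts. Hist1h4d met the filter through LD, so these values are not support for a difference.

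Hist2h4 (chromosome 3, 96261682 to 96263311), also an H4 gene, was listed at 0 in every TAC heart. It had 4.56, 2.16 and 5.51 FPKM in LD hearts, 0 FPKM in all 3 TAC hearts and 2.01, 0 and 9.80 FPKM in sham hearts. LD was at least 5.26-fold higher than TAC, with TAC set at 3 fragments per library. That bound takes each fragment as separate and may be too high, since TAC 2 and TAC 3 have mostly even counts. LD against TAC gave a fitted difference of 2.28 ± 0.62 (SE), with an unadjusted p of 0.00255 and an adjusted p of 0.480 by limma, and TAC against sham gave -1.67 ± 0.62, with an adjusted p of 0.801. That difference from sham rested on sham 3: it was -0.80 without that library and -2.51 without sham 2. The sham hearts ran from 0 to the highest value of the 9. Hist2h4 met the filter through LD, so these values are not support for a difference. Hist1h4j, the last tested H4 gene, was above 0 in LD 1, TAC 1 and TAC 3 and in no sham heart. The 7 untested H4 genes were led by Hist1h4c, with 7.18, 0.295 and 0.664 FPKM in LD hearts, 0 FPKM in all 3 TAC hearts and 5.89, 0.551 and 0 FPKM in sham hearts.

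**Figure D5:**
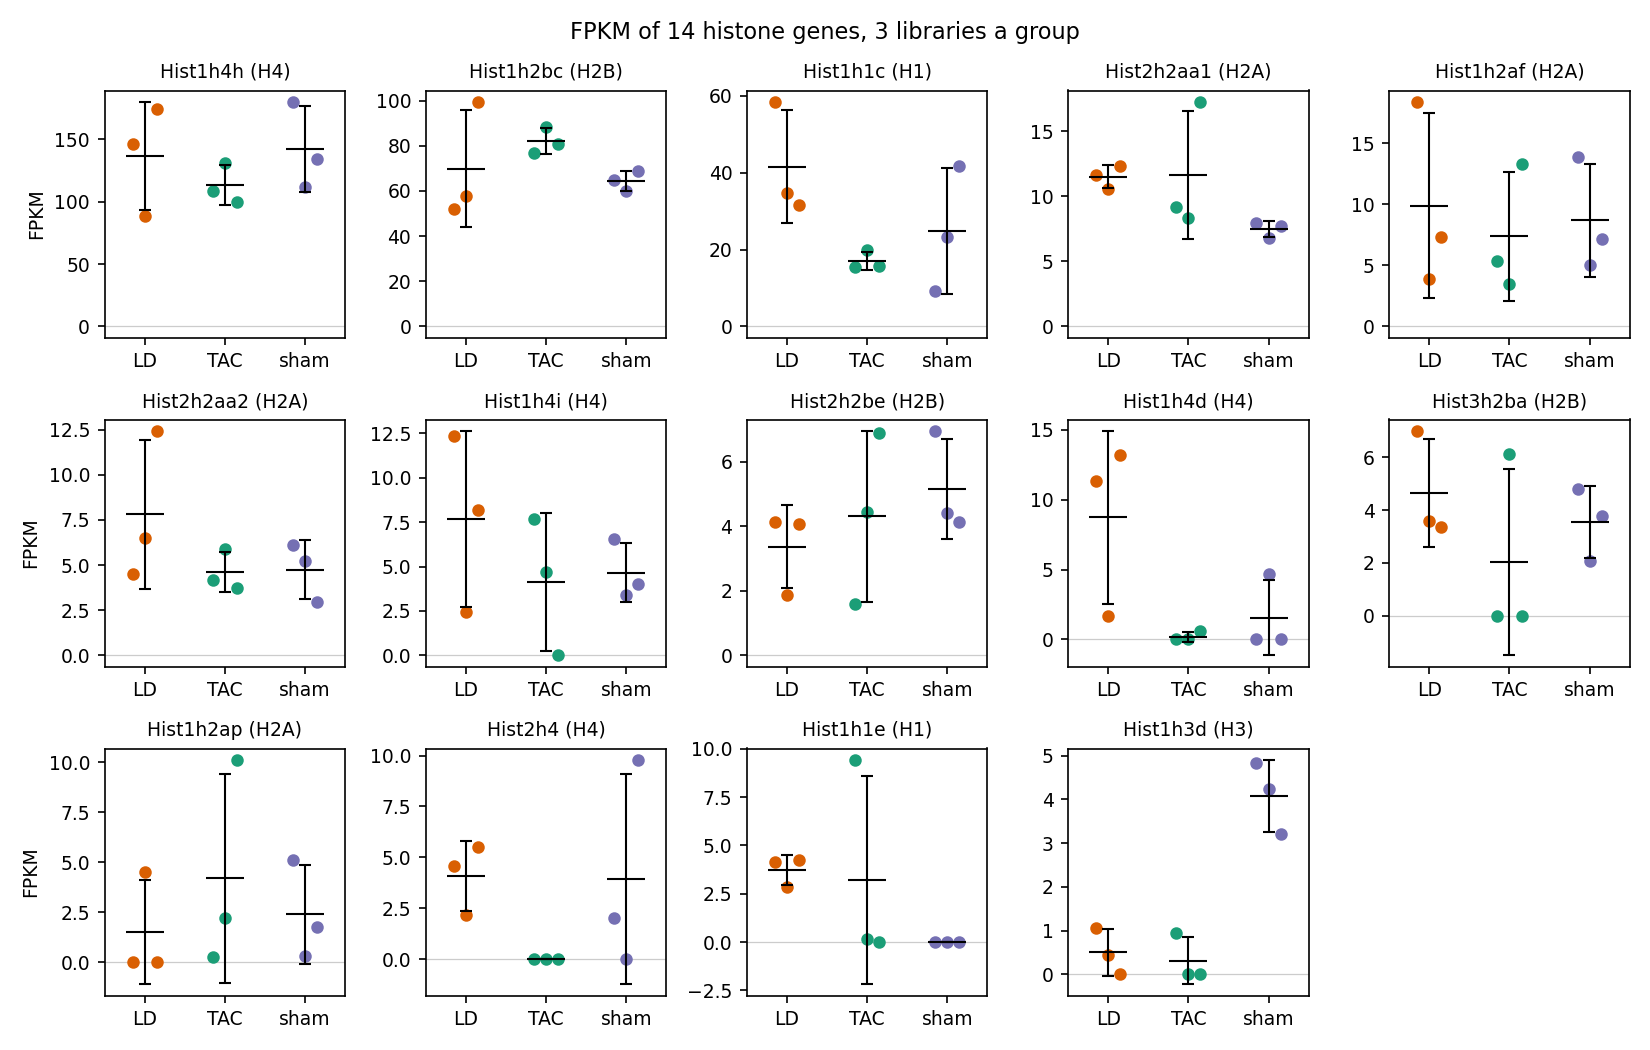
FPKM (vertical axes, each with its own scale) of 14 histone genes in the LD, TAC and sham libraries; points are libraries in the order 1 to 3, the bar is the mean and the whiskers its SD. Hist1h4d, Hist2h4 and Hist1h1c have all LD points above all TAC points, Hist1h3d has all sham points above the other groups, and most other genes overlap.

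The 29 untested members had means between 0.0127 and 1.62 FPKM over the 9 libraries. Of the 87 values per group, 39 were above 0 in LD, 18 in TAC and 33 in sham, with no share over other low genes set beside them. Values under 1 FPKM within such a list rest on few fragments each, and no test was made of them.

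The 14 replication-independent histone genes of the list summed to 585 to 687 FPKM in LD, 499 to 788 FPKM in TAC and 538 to 730 FPKM in sham, against 240 to 395 FPKM for the 46 members over the 9 libraries. The 2 highest were H3f3a, at 176 ± 11.5 FPKM in LD, 241 ± 133 FPKM in TAC and 247 ± 107 FPKM in sham, and H2afj, at 157 ± 28.9, 125 ± 9.32 and 141 ± 16.7 FPKM (SD, n = 3 each). Of 11 tested such genes, 1 was higher and 1 lower at an unadjusted p under 0.05 in LD against TAC, none in LD against sham, and 1 higher and 1 lower in TAC against sham. Of 22 tested genes of S phase and DNA replication, such as the sliding clamp Pcna and the helicase subunit Mcm7, 3 were higher and 1 lower in LD against TAC, none in LD against sham, and 1 lower in TAC against sham. Their medians were -0.05, -0.03 and -0.08, beside -0.10, -0.11 and -7.22e-05 over all tested genes. At that level of p, 2.51% of all tested genes were higher and 6.31% lower in LD against TAC. The shares were 1.52% and 3.59% in LD against sham and 2.85% and 2.58% in TAC against sham. Pcna averaged 12.1 ± 2.64 FPKM in LD, 17.3 ± 5.42 FPKM in TAC and 14.7 ± 2.53 FPKM in sham. Of 14 markers of proliferating cells only 2 reached the level for a test, and all 14 together summed to 7.48 to 8.44 FPKM in LD, 7.80 to 11.8 FPKM in TAC and 5.81 to 7.41 FPKM in sham.

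The 18 tested genes of histone transcription and 3′ end processing include Srrt, the cap-binding complex subunit Ncbp1 and the scaffold Sympk. Of the 18, 1 was lower in LD against TAC, 1 lower in LD against sham and 1 higher in TAC against sham. Of 15 polyadenylation factors 1 was lower in LD against TAC and none was past that level in the other comparisons. In LD against TAC 11 of 15 were below 0, with a median of -0.32, beside -0.10 over all tested genes. Pabpn1, which binds nuclear poly-A tails, averaged 83.1 ± 35.6 FPKM in LD, 117 ± 18.2 FPKM in TAC and 115 ± 18.7 FPKM in sham. Of 16 histone chaperones and nucleosome assembly genes 1 was lower in TAC against sham, and none differed at that level with LD; Npm1 averaged 96.1 ± 25.1, 109 ± 46.4 and 99.2 ± 22.9 FPKM in LD, TAC and sham. No adjusted p in these lists was under 0.05. Markers of fibroblasts summed to 328 to 462 FPKM in LD, 497 to 1011 FPKM in TAC and 314 to 422 FPKM in sham, those of macrophages to 123 to 202, 136 to 201 and 105 to 170 FPKM, those of endothelium to 195 to 217, 193 to 243 and 192 to 235 FPKM, and those of lymphocytes to 0.612 to 6.44, 0.902 to 11.7 and 1.92 to 2.91 FPKM. Their part in the histone values was not tested, and in whole hearts fewer cells of a type and less RNA per cell cannot be told apart.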

How the data were processed

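The authors deposited 1 table of FPKM values (fragments per length of gene and size of library) for 21989 gene symbols in 9 columns. Per the submitters' processing notes the tools were CASAVA 1.8, fastp 0.20.0, HISAT2 2.1.0, Cufflinks 2.2.1, HTSeq 0.7.2 and DESeq, with build GRCm38. Neither the annotation nor the tool behind the values is given in the sources used here.

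Within a gene, the steps between FPKM values were those of single fragments: all 16262 genes above 0 gave whole fragments within 0.001, which gave totals and gene lengths. Differences were fitted on log2(FPKM + 1), a pseudocount of 1, with limma 3.58.1 under R 4.3.3 (a joint model of the 3 groups, 6 residual degrees of freedom, trended empirical Bayes, two-sided, Benjamini-Hochberg over 11380 genes with at least 1 FPKM in at least 3 libraries). The fit and the recovery were tested on simulated data. With 3 libraries a group, an exact permutation test of 1 gene could not go below 0.10, and none was used.

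The members and lists were chosen with earlier results of these data known. Genes named are the 12 members of highest mean FPKM, the highest of each class, and the 3 smallest p in each comparison (14 in all), plus others named as examples after their values were seen. Context lists give counts and up to 4 members. Of RNAs known to lack a poly-A tail, none of 24 was found in the table. Stem-loops and overlaps came from GENCODE M21, promoters and gene models from RefSeq; of 46 members 45 matched 1 RefSeq gene. Alternatives changed the pseudocount, filter, scaling, weights, model and libraries; 2, on even counts, were added after seeing the data.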

Additional observations from a re-analysis of the deposited data

How the results depend on the processing

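The 9 fits that leave out 1 library called 0 to 13 genes and 0 to 1 histone genes in TAC against sham, 0 and 0 in LD against TAC, and 0 to 8 and 0 to 1 in LD against sham; the median over the tested histone genes ran from -0.40 to -0.12, from 0.21 to 0.64 and from 0.24 to 0.61. Array weights called 9 genes and 1 histone gene in TAC against sham and 135 and 2 in LD against sham, voom called 4 and 3 genes, and a fit of the 2 groups alone called 10 genes and 1 histone gene in LD against sham. The cause was not tested. In LD against TAC the median was 0.86 with a pseudocount of 0.1, 0.27 with no filter, 0.31 with array weights and 0.31 without TAC 3 and LD 3; in LD against sham it was 0.24 with no filter, and in TAC against sham -0.041 among the 5 libraries without mostly even counts. In that setting TAC and sham have 1 library each, assumed to vary like LD.

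The replicate numbers did not pair the libraries (same-number correlations of -0.24 to 0.15), and a replicate block called 0 genes. Each group holds every replicate number once, so the block could not alter the group differences. The medians of -0.29, 0.56 and 0.45 were therefore the same by design.

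Of 882 recomputed values of the 14 named genes, 67 changed sign, 6 gained an adjusted p under 0.05 and 809 kept direction and side; where the sign changed, the adjusted p was at least 0.63 before and at least 0.52 after. In TAC against sham, leaving out 1 library moved Hist1h1c between -0.85 and 0.19, Hist1h2af between -0.76 and 0.082, Hist2h2aa2 between -0.26 and 0.16, Hist1h4i between -1.21 and 0.35, Hist2h2be between -0.68 and 0.12, Hist1h4d between -1.02 and 0.23 and Hist1h2ap between -0.48 and 1.09. In LD against TAC it moved Hist2h2aa1 between -0.13 and 0.35, Hist1h2af between -0.21 and 0.80, Hist2h2be between -0.63 and 0.17 and Hist1h3d between -0.057 and 0.52. In LD against sham it moved Hist1h4h between -0.29 and 0.19, Hist1h2bc between -0.23 and 0.24, Hist1h2af between -0.50 and 0.50 and Hist2h4 between -0.23 and 1.48. Without TAC 3 and LD 3, TAC against sham was 0.10 for Hist2h2aa2, 0.35 for Hist1h4i and -0.48 for Hist1h2ap, LD against TAC was -0.064 for Hist1h4h, -0.043 for Hist1h4i, 0.034 for Hist2h2be and 0.22 for Hist1h2ap, and LD against sham was -0.23 for Hist1h2bc.

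With array weights, TAC against sham was 0.030 for Hist2h2aa2, LD against TAC was -0.27 for Hist1h4h, -0.073 for Hist1h4i and 0.31 for Hist1h2ap, and LD against sham was -0.087 for Hist1h2bc, -0.47 for Hist1h2af, -0.28 for Hist1h4i and 0.72 for Hist1h2ap. With voom, Hist2h2aa2 was 0.042 in TAC against sham and Hist1h2af -0.36 in LD against sham. With equal FPKM sums, Hist2h2aa2 was 0.0023 in TAC against sham, Hist2h2aa1 -0.051 in LD against TAC, and Hist1h2bc -0.036 and Hist1h2af -0.039 in LD against sham. With median-of-ratios scaling, Hist1h4h was 0.040 in LD against sham.

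With even counts as a term, LD against TAC was 0.33 for Hist2h2be, 0.29 for Hist1h2ap, -0.067 for Hist1h1e and -0.14 for Hist1h3d, and LD against sham was 0.10 for Hist1h4h, -0.013 for Hist1h4i, 0.0065 for Hist2h2be and 0.63 for Hist1h2ap. Without the libraries of mostly even counts, TAC against sham was 0.079 for Hist1h2af, 0.97 for Hist1h4i and -0.047 for Hist1h2ap, LD against TAC was -0.21 for Hist1h4i, 0.70 for Hist2h2be, 0.49 for Hist1h2ap, -1.16 for Hist1h1e and -0.43 for Hist1h3d, and LD against sham was 0.23 for Hist1h4h and 0.44 for Hist1h2ap. Values under 1 FPKM rest on few fragments, and in a library of 7.43 M fragments a 1-kilobase gene at 3 fragments reads 0.404 FPKM.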
